A study of Mus musculus with 3 samples.

Results

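The enzymes described here clear reactive aldehydes and carbonyls from cells. They are 10 genes chosen by symbol, Aldh2, Aldh1a1, Aldh1b1, Aldh3a2, Aldh7a1, Aldh9a1, Akr1b3, Akr1b8, Cbr1 and Esd, out of 18287 genes with values, and all 10 were found. RNA came from cultured mouse aortic endothelial cells, the lining cells of the aorta, purchased as such; the labels name no mouse strain and no number of cultures. The control library came from cells labelled as control. The glucose oxidase library came from cells given glucose oxidase at 5 mU/mL for 30 min, an enzyme that turns glucose and oxygen into hydrogen peroxide. The third library came from cells given the same glucose oxidase exposure and ethyl-2-hydroxybenzylamine (Et2HOBA) at 0.2 mM for 24 h, called the library with both agents. Et2HOBA is an amine that traps isolevuglandins, which are dicarbonyl products of lipid peroxidation. The treatment labels do not say in which order the agents were given, or how long after glucose oxidase the cells were collected. If that time differed between the treated libraries, its part cannot be told apart from that of Et2HOBA. Et2HOBA without glucose oxidase was not analysed here.

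Hydrogen peroxide and the lipid radicals it can start lead to aldehydes such as hydroxynonenal, malondialdehyde and isolevuglandins, which bind to lysine and cysteine side chains of proteins. Aldehyde dehydrogenases oxidize an aldehyde to a carboxylic acid with NAD or NADP. Aldo-keto reductases and carbonyl reductases instead reduce the carbonyl to an alcohol with NADPH. A further route joins the aldehyde to glutathione first: formaldehyde bound to glutathione is oxidized by Adh5, and the product, S-formylglutathione, is split by the esterase Esd.

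With 1 library in each of the 3 groups the differences lack any check by replicates, and conditions could not be tested. A gene is counted as past the limit when its log2 ratio of normalized count plus 10 is at least 1 in either direction. Fold differences are ratios of normalized counts without the added 10, and the 95% intervals beside them, Clopper-Pearson and exact, were taken from the reads of the pair of libraries and cover counting error only. For the glucose oxidase library, reads were worked back from the authors' deposited log2 differences and the control reads. The 3 libraries held between 35005089 and 40212212 reads.

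The cells carried endothelial markers in every library. All 10 endothelial markers, Pecam1, Cdh5 and Vwf among them, were listed with 1688 to 78258 reads, and their summed normalized count was 354942 in control, 228248 with glucose oxidase alone and 207970 with both agents. By log2 ratio 3 of the 10 were past the lower limit with glucose oxidase alone and 5 with both agents. Of all genes 8.6% and 8.04% were past the lower limit, and of protein-coding genes 4.76% and 9.3%. Of 6 smooth muscle markers, Acta2, Myh11, Tagln and Des had 4 to 73 reads, Smtn had 3517 to 4970, and Cnn1 was not listed. Of 6 fibroblast markers, Col1a2, Dcn and Lum were not listed, Col1a1 and Col3a1 had 0 to 30 reads, and Pdgfra had 107, 1325 and 2821 (control first, both agents last). Of 6 leukocyte markers, Ptprc, Adgre1 and Cd3e were not listed, Csf1r had 6 to 12 reads, Lyz2 had 186, 76 and 86, and Cd68 had 8215, 17067 and 27799. Of 4 lymphatic markers, Prox1 and Pdpn were not listed, Flt4 had 6084 to 7796 reads, and Lyve1 had 11828, 22417 and 33226. The summed normalized counts of the listed markers, in the same order of libraries, were 4859, 3717 and 3943 for smooth muscle, 133, 1416 and 2738 for fibroblasts, 8146, 17771 and 26858 for leukocytes, and 18313, 29524 and 39497 for lymphatic endothelium. Most of the fibroblast sums came from Pdgfra and most of the leukocyte sums from Cd68, while Lyz2 was lower in both treated libraries. Pdgfra, Cd68 and Lyve1 ran in the same order of libraries as Esd and Akr1b8 below, and their part in those results was not tested. In bulk RNA, fewer cells of a type and less RNA per cell cannot be told apart.

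Of the 10 enzymes, 3 passed the limit in at least 1 comparison: Esd and Akr1b8 against control, and Aldh1b1 between the treated libraries. The 100 bases that lie directly before the deposited start of each of these genes are shown because the genes differ most between libraries. They are printed on the strand of the gene, from RefSeq promoter sequences of build GRCm38.p6, in which 7 of the 10 genes had an entry. Capitals mark GGGCGG or its reverse complement, the GC box, which was searched after the promoters had been seen.
Esd: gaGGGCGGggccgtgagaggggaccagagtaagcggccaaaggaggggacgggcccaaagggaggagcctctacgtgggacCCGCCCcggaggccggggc
Akr1b8: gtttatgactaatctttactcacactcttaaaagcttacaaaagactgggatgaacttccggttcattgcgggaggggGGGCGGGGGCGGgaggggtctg
Aldh1b1: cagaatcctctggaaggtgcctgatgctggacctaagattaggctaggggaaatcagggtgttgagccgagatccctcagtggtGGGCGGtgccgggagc
The Esd stretch is chr14:74732197-74732296, the Akr1b8 stretch chr6:34354019-34354118 and the Aldh1b1 stretch chr4:45798922-45799021, all on the plus strand. Their G and C content was 74%, 52% and 59%. In 300-base windows, from 250 bases before to 50 bases after the RefSeq start, a GC box occurred in 4 of the 7 enzymes, these 3 and Aldh3a2, which passed no limit, and in 35.7% of all 32851 promoters. The 3 stretches were chosen for the difference in reads, so nothing is read from the matches.

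Motifs linked to oxidant and amino acid stress were also searched on both strands of the same 300-base windows. The core of the antioxidant response element, TGACNNNGC, to which the factor NRF2 binds, occurred in 12.4% of all windows. Among the enzymes it was found in Aldh9a1 alone, 87 bases before the start, in the stretch chr1:167349889-167349927 on the plus strand, where capitals mark the match.
Aldh9a1: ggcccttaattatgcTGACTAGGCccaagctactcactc
The core of the element bound by ATF4 with C/EBP factors, TGATGNAA, occurred in 3.97% of all windows and in none of those of the 7 enzymes. A match is a run of letters and not a shown binding site, and its lack says only that these letters are not in the window.

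Levels of different genes were compared as normalized count per kb of exon. Exon length was taken over all annotated exons of a gene together, whether or not its main transcript holds them. In control cells Aldh2 was highest, at 5229 per kb, and Esd followed at 1904. Akr1b8 at 983 (95% Poisson interval 934 to 1033) and Aldh9a1 at 956 (924 to 989) came next, and their intervals overlapped. Cbr1 at 460, Aldh3a2 at 392, Akr1b3 at 271 and Aldh7a1 at 236 formed the middle, and Aldh1a1 at 57.5 and Aldh1b1 at 34.2 were lowest. In both treated libraries Esd lay above Aldh2 per kb, at 7249 against 5941 with glucose oxidase alone and 8480 against 5358 with both agents. Before division by length, Esd lay below Aldh2 with glucose oxidase alone, at normalized counts of 24401 against 30453. With both agents these were 28544 against 27464. The exon lengths used were 3366 bases for Esd and 5126 for Aldh2, so the order with glucose oxidase alone depended on them. Of the summed level per kb of the 10 genes, Esd made up 18.1% in control, 40.6% with glucose oxidase alone and 45.0% with both agents, and Aldh2 made up 49.7%, 33.3% and 28.4%.

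**Figure D1:**
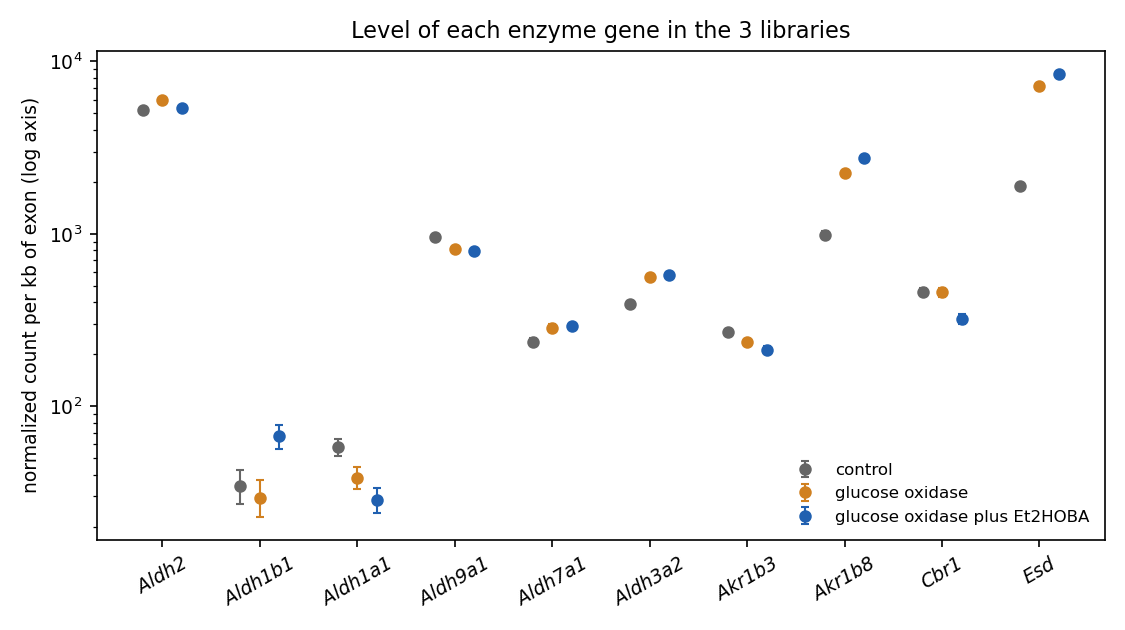
Normalized count per kb of exon (log axis) of the 10 enzyme genes in the 3 libraries, 1 per group; bars are 95% Poisson counting intervals and are hidden by the points where reads are many. Esd stands at 1904, 7249 and 8480 per kb and passes Aldh2 in both treated libraries, while Aldh1a1 and Aldh1b1 lie below 100 in all 3.

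Glucose oxidase against control asks how the oxidant left these enzymes. Esd and Akr1b8 were higher and passed the limit, and the other 8 stayed within it. That is 2 of 10, beside 12.7% of all 18287 genes past the limit in this comparison. On the higher side it is 2 of 10 beside 4.07%, and on the lower side 0 of 10 beside 8.6%. All 10 are protein-coding, and of the 13285 protein-coding genes 4.53% were past the limit on the higher side and 4.76% on the lower side. The median log2 ratio of the 10 was 0.09, against -0.01 over all genes and 0.04 over protein-coding genes. By the counting interval 5 of the 10 lay above control, 3 below, and 2 could not be placed. The share of all genes placed by such intervals is not given here. Counts by interval in the 3 comparisons are therefore not read as results about the enzymes.

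The library with both agents, set against control, again had Esd and Akr1b8 past the limit, 2 of 10, beside 14.7% of all genes. The share of all genes was 6.66% on the higher side, where both enzymes lay, and 8.04% on the lower side, where 0 of 10 lay. Among protein-coding genes these shares were 7.33% and 9.3%. The median log2 ratio of the 10 was 0.17, against 0.00 over all genes. Counting intervals put 6 of the 10 above control and 4 below. This comparison shares its control library with the one before, so a like order of the enzymes in both is not separate evidence.

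The comparison of the treated libraries sets the library with both agents against that with glucose oxidase alone. Aldh1b1 alone passed the limit, 1 of 10, beside 8.55% of all genes. Aldh1b1 lay on the higher side, with 6.39% of all genes, and 0 of 10 on the lower side, with 2.15%. Among protein-coding genes the balance was the reverse, with 0.971% on the higher side and 2.35% on the lower side. Processed pseudogenes, which are intronless gene copies, numbered 2110. Of these 45.5% were past the higher limit here, and 39.9% were past the lower limit with glucose oxidase alone against control. With both agents against control, 3.7% were higher and 2.46% lower. For these copies the glucose oxidase library stood apart, and the part of this in the values of the enzymes was not tested. The median of the 10 was -0.01, against 0.00 over all genes. By the counting interval 3 were higher with Et2HOBA, 4 were lower and 3 could not be placed. With 10 genes each of these counts turns on 1 or 2 of them, so the values of single enzymes follow.

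**Figure D2:**
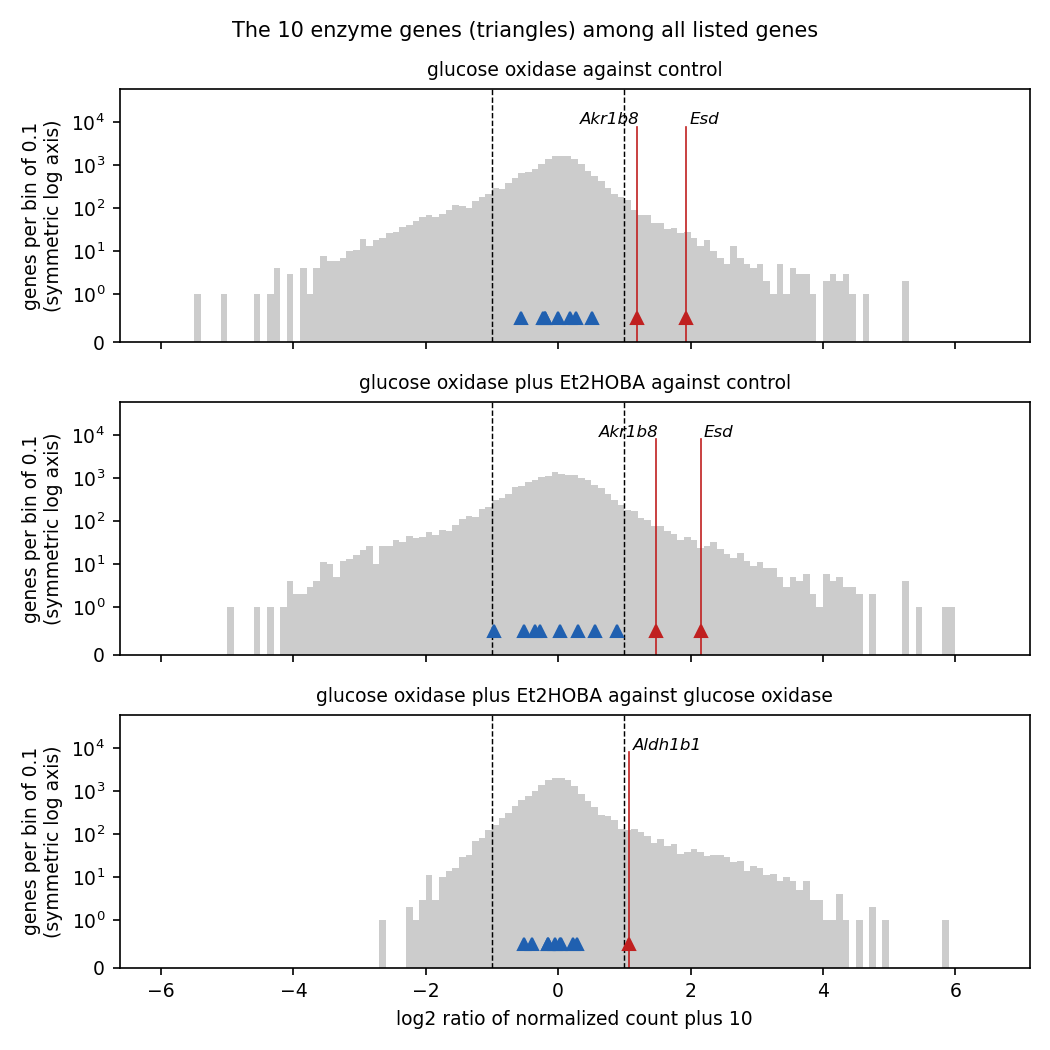
Number of genes per bin of 0.1 log2 units (symmetric log axis) over all 18287 genes in each of the 3 comparisons, with the 10 enzyme genes as triangles, red and named where they pass the dashed limits at -1 and 1. Esd and Akr1b8 lie past the limit in both comparisons against control, and Aldh1b1 alone between the treated libraries.

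Esd, the esterase that completes the glutathione-dependent removal of formaldehyde, showed the largest difference of the 10 against control. Esd (ENSMUSG00000021996.16, chromosome 14, 74732297 to 74750765, build GRCm38) gave 6613 reads in the control library, 23556 with glucose oxidase alone and 29646 with both agents. Both treated libraries were high, and the one with Et2HOBA was the highest. The level was 3.81-fold that of control with glucose oxidase alone (95% interval 3.71 to 3.91) and 4.45-fold with both agents (4.34 to 4.58). Between the treated libraries it was 1.17-fold higher with Et2HOBA (1.15 to 1.19). By log2 ratio Esd ranked 166th from the top of 18287 genes with glucose oxidase alone, and 247th with both agents. In the authors' deposited tables its log2 differences were 1.90 and 2.14. Of the 50-base stretches of its longest transcript, 14.1% occur in another gene, mostly processed pseudogenes. When the reads of the 5 listed pseudogenes were added to those of Esd, the folds against control were 3.74 and 4.44.

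The enzyme before Esd in the formaldehyde route is Adh5, which was named after its values were seen. The reads of Adh5 numbered 3359, 4196 and 4762, control first and both agents last. Its level was 1.34-fold that of control (1.28 to 1.40) and 1.41-fold (1.35 to 1.47), in the same order of libraries as Esd but within the limit.

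Akr1b8 encodes an aldo-keto reductase, first described as a growth factor-induced protein, that reduces aldehydes, retinal among them. Akr1b8 (ENSMUSG00000029762.6, chromosome 6, 34354119 to 34368463) gave 1520 reads in the control library, 3248 with glucose oxidase alone and 4258 with both agents. As for Esd, the control library was lowest and the library with Et2HOBA highest. The level was 2.28-fold that of control with glucose oxidase alone (2.15 to 2.43) and 2.78-fold with both agents (2.62 to 2.95), and 1.22-fold higher with than without Et2HOBA (1.16 to 1.28). The log2 differences in the authors' deposited tables were 1.10 and 1.43. Akr1b8 shares 3.21% of its stretches with other genes, chiefly Akr1b10. With all reads of Akr1b10 added to it, its log2 ratio with glucose oxidase alone was 0.87 in place of 1.19, which is within the limit, and 1.08 in place of 1.47 with both agents. Akr1b10 holds 2.37% of the stretches of Akr1b8 and was itself below control in both treated libraries. Adding all of its reads therefore lowers the ratio, however few reads were shared.

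Akr1b3, the aldose reductase that turns glucose into sorbitol and also reduces lipid aldehydes, went the other way. Akr1b3 (ENSMUSG00000001642.18, chromosome 6, 34302434 to 34317478) had 2341, 1907 and 1849 reads, so that control was highest. It stood at 0.871 of the control level with glucose oxidase alone (0.819 to 0.925) and at 0.785 with both agents (0.738 to 0.834). Both differences were within the limit.

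Cbr1 is an NADPH-dependent carbonyl reductase of quinones, prostaglandins and lipid aldehydes. Cbr1 (ENSMUSG00000051483.9, chromosome 16, 93605853 to 93610505) gave 1213 reads in the control library, 1127 with glucose oxidase alone and 848 with both agents. The glucose oxidase library could not be told from control, at 0.993 of its level (0.915 to 1.08). The library with Et2HOBA was the low one, at 0.695 of control (0.636 to 0.759) and 0.699 of glucose oxidase (0.639 to 0.765). Of the 10 enzymes Cbr1 had the lowest log2 ratio between the treated libraries, at -0.51, within the limit.

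Among the mitochondrial aldehyde dehydrogenases, Aldh2 is the main enzyme for acetaldehyde and also oxidizes hydroxynonenal. Aldh2 (ENSMUSG00000029455.14, chromosome 5, 121566027 to 121593824) had 27663, 29398 and 28524 reads, control first and both agents last. Its level was 1.14-fold that of control with glucose oxidase alone (1.12 to 1.15) and 1.02-fold with both agents (1.01 to 1.04). The log2 ratio behind the second value was 0.03, and it was -0.12 when libraries were scaled by their total counts, so its direction depended on the scaling. That scaling moved the median over all genes to -0.13 in the same comparison.

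Aldh1b1, a mitochondrial relative of Aldh2 with activity on acetaldehyde and retinaldehyde, was the only one of the 10 to pass the limit between the treated libraries. Aldh1b1 (ENSMUSG00000035561.5, chromosome 4, 45799022 to 45804604) gave 81 reads in the control library, 65 with glucose oxidase alone and 159 with both agents. The library with Et2HOBA stood apart from the other two. It was 2.27-fold above glucose oxidase (1.69 to 3.08) and 1.95-fold above control (1.48 to 2.58), while glucose oxidase against control gave 0.858 with an interval across equality (0.609 to 1.20). The log2 ratio between the treated libraries was 1.08. It was 0.99 with total-count scaling and 0.24 on the scale of the authors' deposited tables, both within the limit. The value of 0.24 was computed here, since no deposited difference between the treated libraries was found for any of the 10.

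The cytosolic Aldh1a1 makes retinoic acid from retinaldehyde and also oxidizes lipid aldehydes. Aldh1a1 (ENSMUSG00000053279.8, chromosome 19, 20492715 to 20643465) gave 293 reads in the control library, 182 with glucose oxidase alone and 146 with both agents, so that both treated libraries were low. It stood at 0.664 of control (0.549 to 0.802) and 0.495 of control (0.403 to 0.606), and at 0.746 between the treated libraries (0.596 to 0.932). Its log2 ratio with both agents was -0.96, just within the limit, and it was past the limit with total-count scaling, at -1.11, and with a pseudocount of 1, at -1.01. Aldh1a1 shares 6.54% of its stretches with other genes, chiefly Aldh1a7, which had many more reads. The summed reads of both genes gave log2 ratios against control of -1.91 and -3.10, both past the limit. Of the 5047 control reads in that sum 4754 were those of Aldh1a7, so the sum says little about Aldh1a1.

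Aldh3a2, the membrane-bound fatty aldehyde dehydrogenase, was moderately higher in both treated libraries. Aldh3a2 (ENSMUSG00000010025.19, chromosome 11, 61223417 to 61267464) had 2273, 3049 and 3382 reads. The folds against control were 1.43 (1.36 to 1.51) with glucose oxidase alone and 1.48 (1.40 to 1.56) with both agents, and the treated libraries could not be told apart (1.03, interval 0.981 to 1.08).

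Aldh7a1, which takes part in lysine breakdown, had 1262 reads in the control library, 1419 with glucose oxidase alone and 1564 with both agents. Its folds against control were 1.20 (1.11 to 1.30) and 1.23 (1.14 to 1.33). Its exons overlap 300 bases of Phax on the opposite strand, and Phax had 1250, 1017 and 1168 reads; whether the counting used strand is not given in the sources used here. Aldh9a1, an enzyme of carnitine synthesis that oxidizes aminoaldehydes, was slightly lower in both treated libraries. Aldh9a1 (ENSMUSG00000026687.14, chromosome 1, 167349991 to 167368532) had 3339, 2675 and 2774 reads, or 0.856 of control (0.814 to 0.901) and 0.825 of control (0.785 to 0.868).

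**Figure D3:**
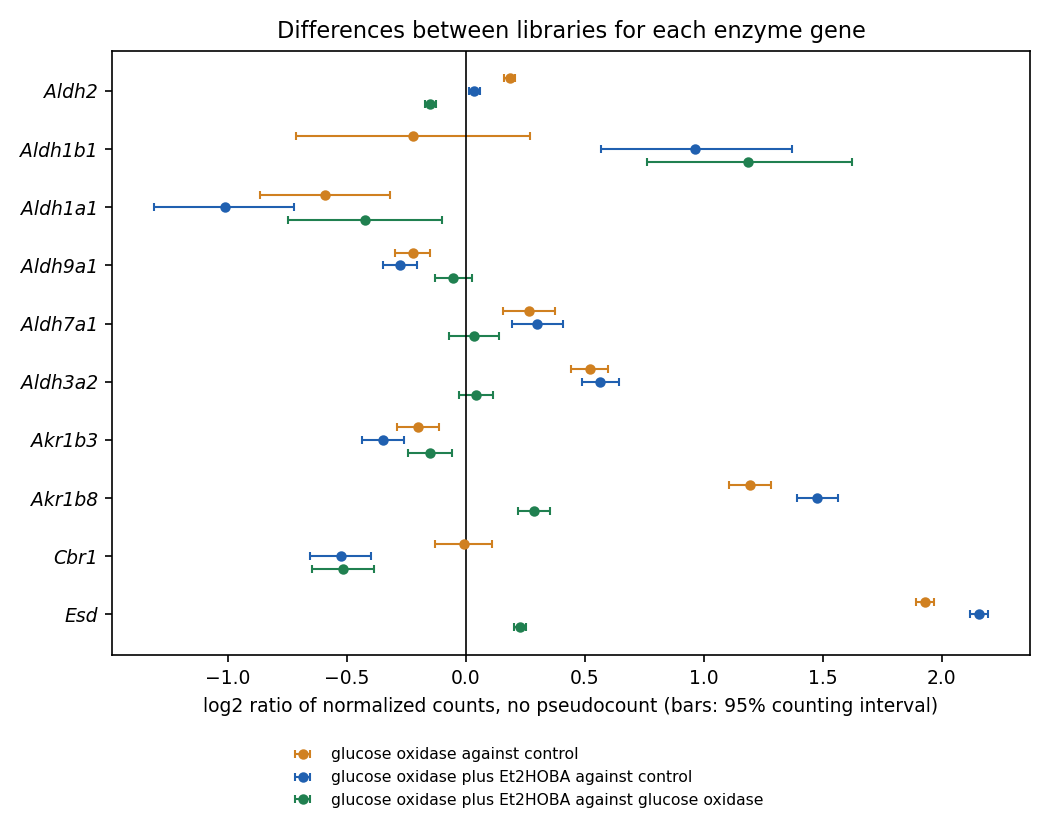
Log2 ratio of normalized counts without pseudocount for each enzyme gene in the 3 comparisons of single libraries; bars are 95% counting intervals. Esd and Akr1b8 lie farthest to the right against control, the bars of Aldh1b1 and Aldh1a1 are widest because their reads are few, and Cbr1 is low with both agents against either other library.

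Several of the enzymes sit beside a close relative, so neighbouring genes of like sequence could be set side by side. The relatives outside the 10 that did not pass the limit, Akr1b10 and Cbr3, were named after their values were seen. On chromosome 6, Akr1b3, Akr1b8, Akr1b10 and Akr1b7 follow each other with gaps of 36.6, 15.8 and 15.4 kb and no other listed gene between them. Akr1b8 was the only abundant gene of this row that was higher in the treated libraries. Akr1b10 had 649, 463 and 356 reads, at 0.763 of control (0.675 to 0.861) and 0.545 of control (0.478 to 0.621), and Akr1b3 was lower too. Akr1b7 had 0 reads in the control library, 30 with glucose oxidase alone and 21 with both agents.

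On chromosome 19 the nearest listed relative of Aldh1a1 is Aldh1a7, 49.5 kb away on the opposite strand. Aldh1a7, a close copy of Aldh1a1, had 4754 reads in the control library, 1070 with glucose oxidase alone and 436 with both agents. This was 0.241 of control (0.225 to 0.257) and 0.0911 of control (0.0824 to 0.101), a larger difference than that of Aldh1a1 in the same direction. On chromosome 11, Aldh3a1, a cytosolic dehydrogenase of aromatic and lipid aldehydes, lies 4995 bases from Aldh3a2. Aldh3a1 had 57, 217 and 156 reads, 4.07-fold (3.03 to 5.55) and 2.72-fold (2.00 to 3.75) above control, and was thus higher in the same libraries as Aldh3a2. On chromosome 16, Cbr3 lies 72.7 kb from Cbr1. Cbr3 had 460, 670 and 676 reads, 1.56-fold (1.38 to 1.76) and 1.46-fold (1.30 to 1.65) above control, whereas Cbr1 was not above control in either.

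**Figure D4:**
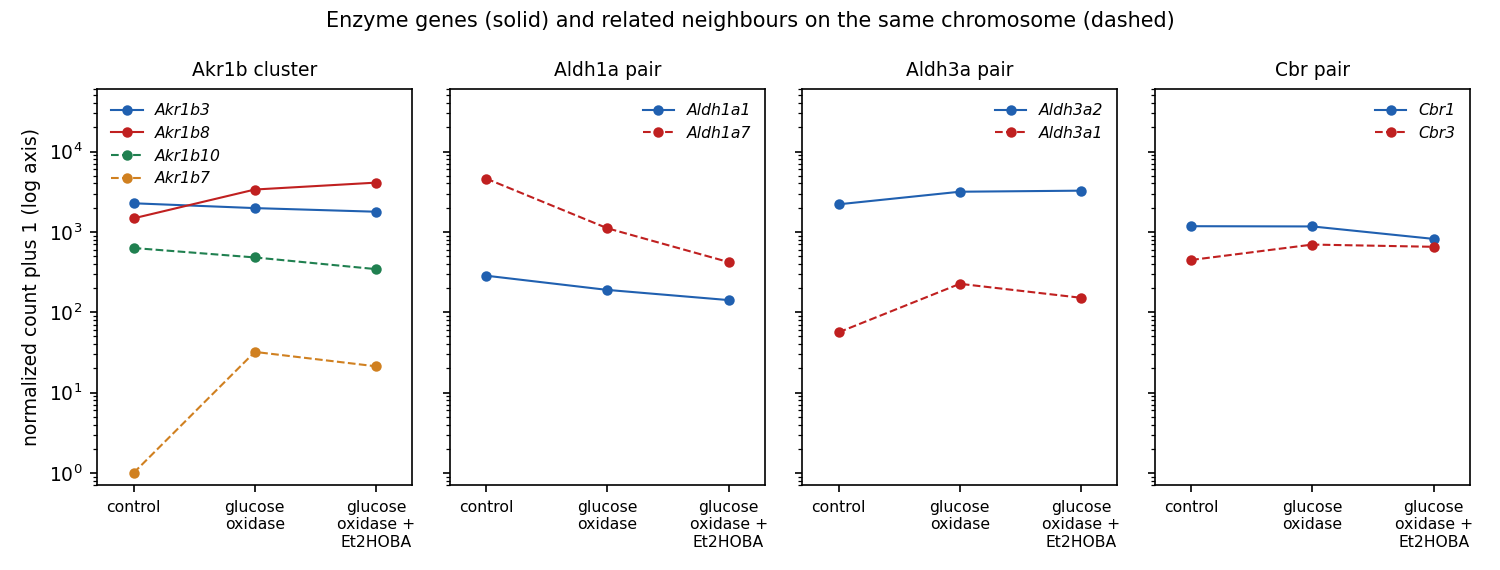
Normalized count plus 1 (log axis) of 4 of the enzyme loci across the 3 libraries, with the enzyme genes as solid lines and their neighbouring relatives as dashed lines. Akr1b8 runs upward while Akr1b3 and Akr1b10 run downward, Aldh1a7 runs downward more steeply than Aldh1a1, and Cbr3 is above control where Cbr1 is not.

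The wider pathway was read from 3 lists of other genes. Of 15 other aldehyde dehydrogenases 11 were listed, and 3 of the 11 were past the limit on the higher side and 1 on the lower side in each comparison against control. Of all genes 4.07% were higher and 8.6% lower with glucose oxidase alone, and 6.66% and 8.04% with both agents. The median log2 ratio of the 11 was -0.03 in the first of these comparisons and -0.22 in the second. The higher genes were Aldh1l2, a mitochondrial folate enzyme, with 52, 2244 and 3696 reads; Aldh18a1, an enzyme of proline synthesis, with 1967, 5312 and 7450 reads; and Aldh3a1. Aldh1l2 and Aldh18a1 act on folate and on glutamate rather than on lipid aldehydes. The lower gene was Aldh1a7. Between the treated libraries it was the only one of the 11 past the limit, at -1.38, beside 8.55% of all genes and 3.32% of protein-coding genes. There 0 of the list passed on the scale of the authors' deposited tables, as computed here.

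Of 18 other aldo-keto and carbonyl reductases 16 were listed. With glucose oxidase alone 3 were past the limit on the higher side and 1 on the lower side, and with both agents 3 and 2. Of all genes 4.07% were higher and 8.6% lower with glucose oxidase alone, and 6.66% and 8.04% with both agents. The medians of the 16 were 0.11 and 0.00. In the authors' deposited values for glucose oxidase alone 1 passed in place of 4, since Akr1c13, Akr1b7 and Cbr2 were then within the limit. Akr1c18, a reductase that inactivates progesterone, had 103, 488 and 608 reads, 5.06-fold (4.09 to 6.33) and 5.87-fold (4.75 to 7.30) above control. Akr1c13 had 155, 412 and 378 reads, but 28.6% of its stretches occur in another gene. Akr1b7 was the other higher gene. Cbr2, a mitochondrial carbonyl reductase, had 194, 36 and 23 reads, 0.198 of control (0.135 to 0.284) and 0.118 of control (0.0729 to 0.182). Dhrs4, a peroxisomal carbonyl reductase, had 1026, 556 and 341 reads and passed the limit with both agents, at -1.57. None of the 16 passed it between the treated libraries, beside 8.55% of all genes and 3.32% of protein-coding genes.

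The glutathione-linked genes of aldehyde and glyoxal removal, were all listed, 19 of 19. With glucose oxidase alone 9 were past the limit and with both agents 8, all on the higher side, beside 4.07% and 6.66% of all genes on that side, with medians of 0.52 and 0.85. Gsta4, the glutathione transferase known for hydroxynonenal, had 466, 3084 and 3480 reads, 7.07-fold (6.42 to 7.82) and 7.42-fold (6.73 to 8.19) above control. Gsta3 had 1471, 6469 and 6923 reads. Gclm, the regulatory subunit of the first enzyme of glutathione synthesis, had 2727, 9842 and 13701 reads, and Abcc1, a pump that exports glutathione conjugates, had 5160, 15994 and 23288. Gsta1 had 8, 228 and 340 reads and Gsta2 had 7, 180 and 195, but 89.7% and 64.2% of their stretches occur in other genes, so the assignment of shared reads bears on their values. None of the 19 was past the limit between the treated libraries, where the median was -0.01. Of all genes 8.55% were past it there, and of protein-coding genes 3.32%. No test of the difference between this list and the 10 enzymes was run.

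**Figure D5:**
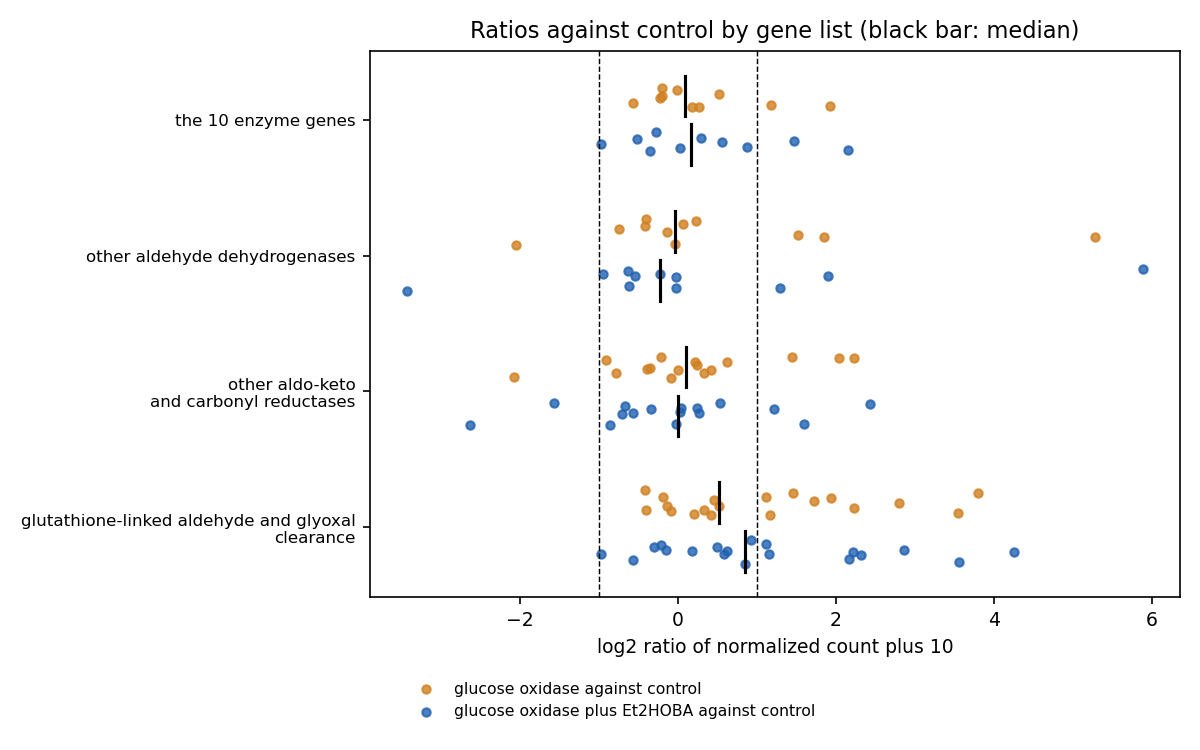
Log2 ratio of normalized count plus 10 against control for the 10 enzyme genes and 3 lists of related genes, 1 point per gene, with the median as a black bar and the limits of -1 and 1 dashed; vertical scatter within a row has no meaning. The medians of the glutathione-linked list are 0.52 and 0.85, and those of the 10 enzymes are 0.09 and 0.17.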

How the data were processed

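Reads were processed by the submitters with STAR and featureCounts on build mm10, per the submitters' processing notes; versions and counting settings are not given in the sources used here. For control and the library with both agents (glucose oxidase and Et2HOBA) the authors deposited raw read counts, transformed values and log2 differences. For glucose oxidase alone the deposited values used here were log2 differences from control. The authors' deposited log2 differences from control were matched by DESeq2 (1.42.0) vst, run per pair of libraries, within 1e-07. Inverting it recovered the missing counts: of 18275 genes joined by symbol, 100% lay less than 0.01 from a whole read, against 3.31% when the control counts were raised by 1 read. Whole reads also placed 12 genes without a match. Between the treated libraries no deposited difference was found for any of the enzymes. Values on the deposited scale for that pair were computed here and could not be checked for them. The recovery, ratios and intervals were run on simulated counts that held counting error only, with differences built by the formula that the recovery inverts. That run checks the code, and it cannot show the spread between cultures or libraries.

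Size factors by the median of ratios were 1.03 (control), 0.965 (glucose oxidase) and 1.04 (both agents). Counts were divided by them and 10 was added before log2 ratios were taken. The highest count of each listed gene was 5 or more. A count model needs replicates and was not fitted. The alternatives were TMM factors (edgeR 4.0.16), total-count scaling, a pseudocount of 1, a mean normalized count of at least 10, a limit of 0.5, the scale of the deposited tables, genes with no shared 50-base stretch, and protein-coding genes. After the data were seen, reads of Esd, Akr1b8 and Aldh1a1 were also summed with listed genes holding at least 1% of their stretches. Exon lengths and shared stretches came from GENCODE M21, in which 17878 gene IDs had the same version and position. All 10 enzymes are named; of the related lists, up to 6 genes past the limit in any comparison, the largest first. The members, lists, limit and this rule were chosen with earlier results of these data known.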

Additional observations from a re-analysis of the deposited data

How the results depend on the processing

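The limit of 0.5 put 4, 6 and 2 of the 10 enzymes past it with glucose oxidase alone, with both agents and between the treated libraries, beside 6175, 7332 and 4670 of all genes. A pseudocount of 1 put 4243, 4494 and 3311 of all genes past the limit of 1, and with both agents 3 enzymes, Aldh1a1 being the third, as did total-count scaling. On the scale of the deposited tables these counts were 734, 1768 and 43, and none of the enzymes passed between the treated libraries, where the values were computed here. Over the 10533 genes with no shared stretch they were 952, 1744 and 339, or 9.04%, 16.6% and 3.22%, against 12.7%, 14.7% and 8.55% of all genes. That restriction leaves out Esd, Akr1b8, Aldh1a1, Akr1b3 and Cbr1, so 0 enzymes passed in either comparison against control. The medians of those left, Aldh2, Aldh1b1, Aldh3a2, Aldh7a1 and Aldh9a1, were 0.18 and 0.30. Aldh1a1, Akr1b3 and Cbr1, which were below control with both agents, are not in these medians. Over the 13285 protein-coding genes they were 1235, 2210 and 441, or 9.3%, 16.6% and 3.32%. Total-count scaling gave medians of the enzymes of 0.0155 with both agents and -0.10 between the treated libraries, where 0 passed. The same scaling moved the medians over all genes to -0.13 and -0.08 in these comparisons. It also turned Aldh3a2 and Aldh7a1 between the treated libraries to -0.05 and -0.06. Of 129 values of single enzymes under alternatives, 104 moved by no more than 0.5 of the log2 width of their counting interval. With total-count scaling the log2 ratios of Esd in the 3 comparisons were 1.87, 2.00 and 0.13, in place of 1.93, 2.15 and 0.23. The counting intervals do not cover the choice of scaling. TMM factors and the filter on low counts moved no count of enzymes or of all genes by over 1.5 times. No paired analysis was possible because each group has 1 library, and for the same reason no replicate could be left out. Depth limits Aldh1b1 and Aldh1a1 most, with 65 to 293 reads.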

Other observations

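Among processed pseudogenes of Esd, intronless copies of its transcript, 2 ran in another order of libraries than Esd. Esd-ps gave 64 reads in the control library, 14 with glucose oxidase alone and 235 with both agents (glucose oxidase and Et2HOBA), and Gm17222 gave 56, 10 and 228. Both were thus lowest in the glucose oxidase library, where Esd itself was 3.81-fold above control. This was common among processed pseudogenes: of 2110 listed, 39.9% were past the lower limit with glucose oxidase alone against control, and 45.5% were past the higher limit with both agents against glucose oxidase. Among protein-coding genes these shares were 4.76% and 0.971%. The other 3 listed copies were low throughout, with 7, 7 and 25 reads for Gm17046, 0, 0 and 16 for Gm17048, and 12, 14 and 39 for Gm5456. These copies hold 4.95% to 9.59% of the 50-base stretches of Esd. How reads shared between a gene and its copies were assigned is not given in the sources used here, and its part in these values was not tested. All of these copies were named after their values were seen.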
